A study of Chlorocebus sabaeus with 6 samples.

Results

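The CITED coactivators are small nuclear proteins that have no DNA-binding domain of their own and work by tying transcription factors to the acetyltransferases CREBBP and EP300. Their acidic carboxy-terminal region docks on a zinc-finger domain shared by both acetyltransferases. CITED1 is known as a coactivator for SMAD4, for AP-2 factors and for the estrogen receptor. In the developing kidney it marks the cap mesenchyme, the progenitors of the nephron, and is lost as these cells become epithelium. CITED2 also binds AP-2 factors, and it competes with the hypoxia-inducible factor HIF1A for the same acetyltransferase domain, so that it is known as a brake on the hypoxia response. It is needed for the formation of the heart and the adrenal gland.

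The account covers 2 of the 51520 rows of a table of expression levels in FPKM, sequenced fragments per kilobase of a row relative to the size of the library, in 6 libraries. The 2 rows carry the human Ensembl protein accessions ENSP00000401764_1, taken as CITED1, and ENSP00000356623_1, taken as CITED2. Both were chosen with the contrast between the groups already known. Differences of the 2 genes between the groups are therefore given as a description, with no p-value. The libraries came from COS-1 cells, an established fibroblast line from the kidney of the African green monkey, Chlorocebus sabaeus, that carries simian virus 40 sequences. Per the labels, 3 libraries were untreated controls and 3 came from lentivirus-treated cells. The cells of all 6 libraries were kept without serum for 14 h and were then exposed for 90 min to 2 ng/ml of EGF, the epidermal growth factor. No unstimulated cells were measured. The series title names SHOC2, a scaffold of the ERK1/2 cascade, but the labels do not state what the lentivirus carried, and no control virus is named. The SHOC2 transcript was not analysed here.

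The table holds accessions without gene symbols, and 0 of them were found in the RefSeq genes of the mChlSab1.0.hap1 assembly. The symbols of the 2 members were given with the selection and could not be checked by accession. The chromosome could be compared: the deposited table places the CITED1 row on chromosome X (62126462 to 62127674) and the CITED2 row on chromosome 13 (34010227 to 34011046), and RefSeq has CITED1 and CITED2 on the same chromosomes. The genome build of the deposited positions is not given in the sources used here. In the RefSeq assembly the coding genes on either side of CITED1 are HDAC8 and RPS4X, and those beside CITED2 are TXLNB and NMBR. RefSeq also lists CITED4, another member of the family, but no row could be paired with it and it was not analysed here. The same holds for CREBBP, EP300, the AP-2, SMAD and HIF partners, and the markers of fibroblasts and kidney epithelium. No sequence of these genes was used.

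Libraries of both groups were of similar breadth. Column sums ran from 2094230 to 2206925 FPKM, and 27605 to 27874 rows per library reached 1 FPKM. Across the 28434 rows with a mean of at least 1 FPKM, libraries of the same group correlated at 0.941 to 0.953 and libraries of different groups at 0.935 to 0.949 (Pearson's r of log2(FPKM + 1) across rows, which are no replicates). Read depth is unknown, so no counting interval is given. In bulk RNA, fewer cells that express a gene and less RNA per cell cannot be told apart. The labels do not say whether replicates were separate cultures, so the errors below measure only the spread between these libraries.

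CITED1, the coactivator of nephron progenitors, was abundant in the control libraries and lower in the lentivirus-treated ones. Its level was 45.2, 43.6 and 52.1 FPKM in control replicates 1, 2 and 3. It was 8.62, 8.71 and 9.04 FPKM in lentivirus-treated replicates 1, 2 and 3. The groups were far from overlapping: the lowest control library held 4.82 times the level of the highest treated library. The group means were 47.0 ± 4.53 and 8.79 ± 0.219 FPKM (SD, n = 3 per group), a 5.34-fold lower level after lentivirus treatment. On the log2(FPKM + 1) scale, which understates changes of low rows, the difference was -2.29 with a standard error of 0.0783 from limma. That difference was 23.6 times the within-group SD of CITED1, 0.0971 log2.

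CITED2, the competitor of HIF1A, was different in direction and smaller in size. Its level was 37.4, 35.0 and 40.1 FPKM in control replicates 1, 2 and 3. It was 51.8, 49.3 and 51.6 FPKM in lentivirus-treated replicates 1, 2 and 3. The lowest treated library stood 1.23 times above the highest control, so these groups did not overlap either. The group means were 37.5 ± 2.52 and 50.9 ± 1.37 FPKM (SD, n = 3 per group), a 1.36-fold higher level after lentivirus treatment. The log2 difference was 0.43 with a standard error of 0.0608 from limma, or 6.01 times the within-group SD of 0.0720 log2. Groups that do not overlap are frequent in this table: 16.5% of all tested rows were lower and 15.1% higher in all 3 treated libraries than in any control, together 31.6%. Since the members were chosen on this contrast, nothing is read from their own separation.

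**Figure D1:**
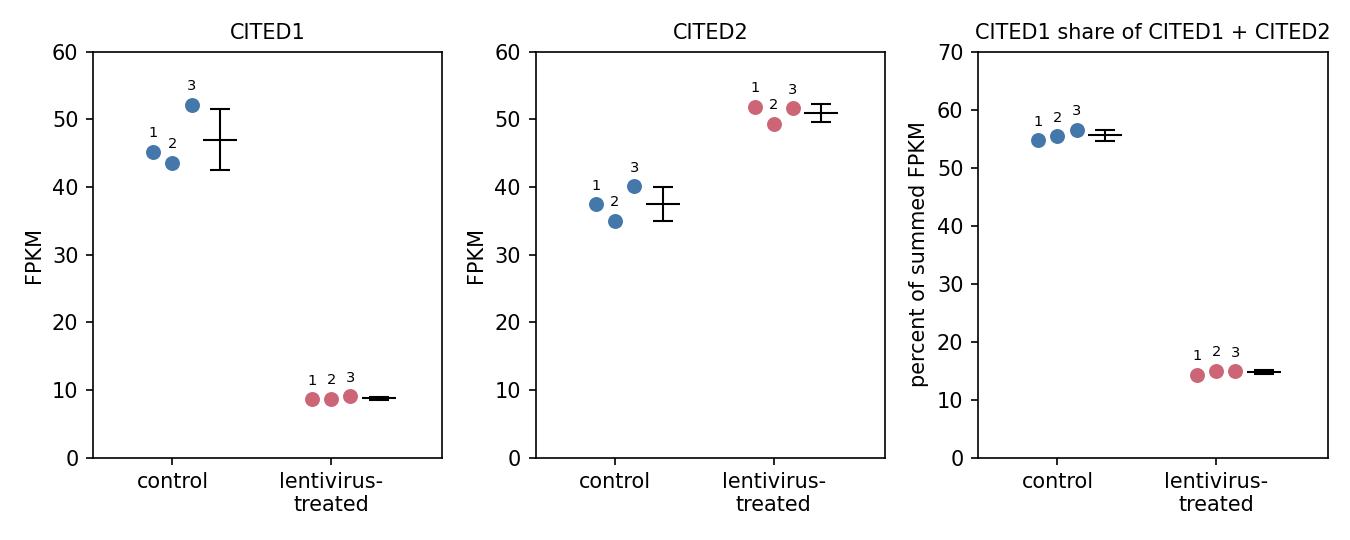
FPKM of CITED1 (left) and CITED2 (middle) in each library, and the share of CITED1 in the summed FPKM of these 2 rows, without the row that overlaps CITED2 (right, percent). Points are libraries numbered by replicate, and the bar beside them is the mean with its SD (n = 3). CITED1 lies between 43.6 and 52.1 FPKM in the controls and between 8.62 and 9.04 FPKM in the treated libraries, while CITED2 lies between 35.0 and 40.1 FPKM and between 49.3 and 51.8 FPKM.

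The order of the 2 rows differed between the groups, but which gene was higher in the controls depended on how an overlapping row was treated. FPKM is a value per length, so that the levels of the genes can be set side by side, although both rows span short stretches (1213 bases for CITED1 and 820 for CITED2) and the length used for scaling is not given. On these rows alone CITED1 was the higher of the pair in the controls, at 1.21, 1.24 and 1.30 times CITED2 in replicates 1, 2 and 3. In the lentivirus-treated libraries CITED2 was the higher, at 6.0, 5.66 and 5.71 times CITED1. On the same rows CITED1 made up 55.6% ± 0.905 of the summed FPKM of the pair in control and 14.7% ± 0.396 in treated libraries (SD, n = 3). The sum itself was lower after treatment: it was 82.5, 78.6 and 92.2 FPKM in the controls and 60.4, 58.0 and 60.6 FPKM in the treated libraries. A row with a JK accession overlaps CITED2, and fragments can be divided among overlapping rows. When that row was summed with CITED2, an alternative added after seeing the data, the sum was above CITED1 in both groups, with no exchange of order. The sum was 1.56, 1.42 and 1.32 times CITED1 in control replicates 1, 2 and 3 and 9.29 to 11 times CITED1 in the treated libraries. Such a sum of values per length need not be the level of CITED2. The rows share only 384 bases, and whether they belong to the same transcript is not known. The share of CITED1 became 41.1% ± 1.94 in control and 9.01% ± 0.684 in treated libraries (SD, n = 3), so that its lower share after treatment was seen either way.

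The place of each gene among all rows moved accordingly. CITED1 exceeded 88.3% to 90.1% of the 19602 rows with a human protein accession in the control libraries and 61.1% to 62.0% of them in the treated libraries. In the treated libraries it therefore stood lower in the table, though still above the 1 FPKM that a row needed to be tested. CITED2 exceeded 85.4% to 87.0% of the same rows in the controls and 89.7% to 90.3% after treatment. In the treated libraries CITED2 thus stood about where CITED1 had stood in the controls.

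The difference of CITED1 was far out in the distribution of all differences, and that of CITED2 was at its shoulder. Both genes were chosen with this contrast known, so their places in it are a description only. Of 13509 tested rows with a protein accession, 10 had a lower log2 difference than CITED1. The central 90% of these rows lay between -0.45 and 0.38 log2. CITED2 was just beyond that range, with 508 protein rows higher, and inside the wider range of all 28434 tested rows (-0.57 to 0.54), of which 7.35% were higher. Among the 1751 other protein rows whose control mean was 30 to 60 FPKM, a range that holds both genes, the median difference was -0.01 log2. Of these, 5 were lower than CITED1 and 47 higher than CITED2. The range of 30 to 60 FPKM was set after the values were seen.

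**Figure D2:**
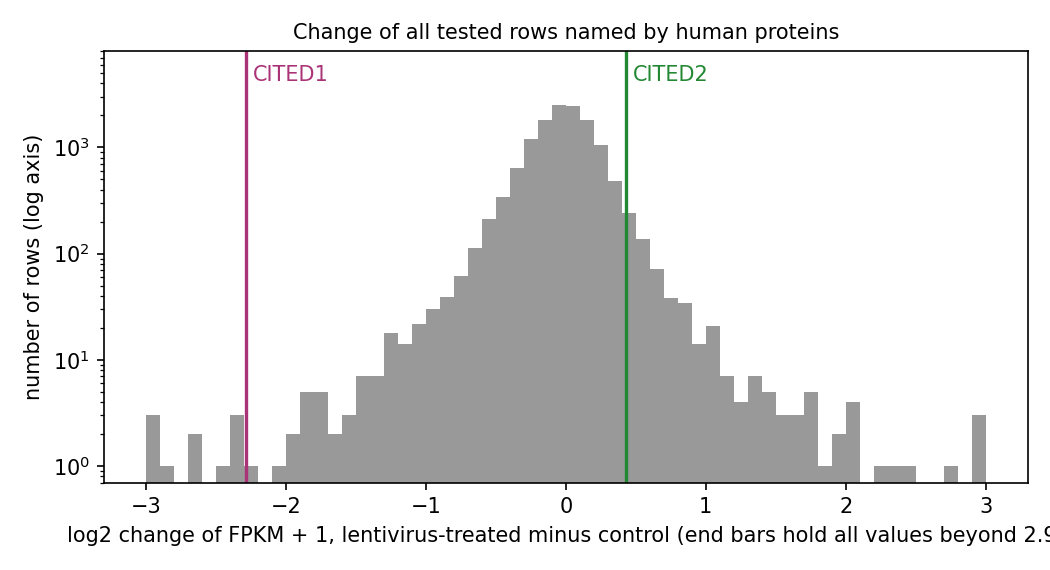
Number of rows with a human protein accession (logarithmic axis) by their difference in log2(FPKM + 1), lentivirus-treated minus control, in bins of 0.1. Vertical lines mark CITED1 at -2.29, where few rows lie, and CITED2 at 0.43, on the right shoulder of the distribution.

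The spread of the 2 genes between replicates was ordinary. The within-group SD of CITED1 was larger than that of 35.5% of tested rows and that of CITED2 larger than that of 22.5%. The coefficient of variation of CITED1 was 9.65% in the control and 2.49% in the treated libraries, and that of CITED2 was 6.72% and 2.68%. Control replicate 3 was the highest control for both genes. Without it the log2 difference of CITED1 was -2.21 and that of CITED2 was 0.48.

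Other rows of the table lay on or close to the CITED2 row. The overlapping JK row shares 384 bases with the CITED2 row and continues beyond its end at lower coordinates. Its level was 32.9, 27.0 and 29.0 FPKM in control replicates 1, 2 and 3 and 42.8, 39.4 and 32.4 FPKM in the treated replicates. Here the groups overlapped, since treated replicate 3 was below control replicate 1, and the difference of 0.35 log2 (standard error 0.126) did not pass the threshold (limma adjusted p = 0.171). A second JK row begins 286 bases beyond the other end of the CITED2 row and overlaps no other row. Its level was 25.7, 23.8 and 24.1 FPKM in the controls and 32.3, 36.3 and 35.2 FPKM in the treated replicates, with no overlap of the groups. This row rose by 0.48 log2 (standard error 0.0621, limma adjusted p = 0.0211), a call that was lost in each fit that left out 1 library. Most calls were lost in those fits: over all tested rows 1842 became 48 to 108. The table does not say whether either JK row belongs to the CITED2 transcript. The ratios of group means, 1.29 for the overlapping row and 1.41 for the adjacent row, stand on either side of the 1.36 of CITED2. When the overlapping row was summed with CITED2, the total was 67.1 ± 4.43 FPKM in control and 89.0 ± 5.32 FPKM in treated libraries (SD, n = 3). No row overlapped CITED1, so that it was read from a single row.

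**Figure D3:**
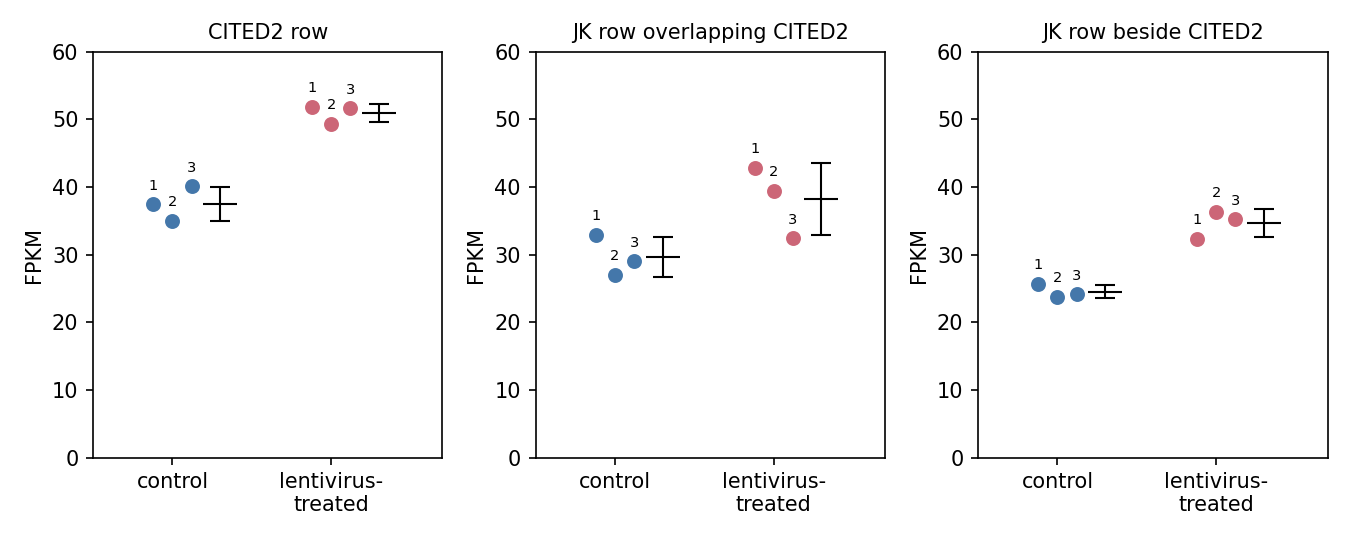
FPKM by library of the CITED2 row (left), of the JK row that overlaps it (middle) and of the JK row 286 bases beside it (right). Points are libraries numbered by replicate, and bars show the mean with its SD (n = 3). The treated mean is higher in all 3 panels, and only in the middle panel do the groups overlap.

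Rows around each gene were compared to see how far its difference was shared along the chromosome. Over all tested rows limma called 6.48% in either direction, 3.59% lower and 2.89% higher, at an adjusted p under 0.05. Within 1 Mb of CITED1 lay 38 other rows, of which 27 were tested. Of these, 3 fell and 0 rose by limma, and their median difference was -0.08 log2. Away from CITED1 toward lower coordinates, 12 of 19 tested rows were higher in treated libraries. Toward higher coordinates 8 of 8 were lower, with a median of -0.22 log2. Among all tested rows but the members, 14258 of 28432 were lower. Most of the 19 rows and some of the 8 overlap other rows, so neither count is one of separate loci. None of those 8 passed the threshold by limma. Chromosome X as a whole had 46 rows that fell and 31 that rose of 835 tested, with a median of -0.01 log2.

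The 3 neighbours of CITED1 that fell belong to 1 group of 6 overlapping JK rows, whose nearest end is 24559 bases from CITED1. They are among the abundant rows of the table. The highest of them held 8643, 8646 and 8611 FPKM in control replicates 1, 2 and 3 and 5548, 5723 and 5834 FPKM in the treated replicates. That row fell by 0.60 log2 (standard error 0.0394, limma adjusted p = 0.00811), and the other called rows fell by 0.55 and 0.64 log2. Levels within the group are divided among overlapping rows: 1 of them read 157, 31.3 and 174 FPKM in the 3 controls. The sum over the 6 rows was steadier, at 14353 ± 97.5 FPKM in control and 9623 ± 160 FPKM in treated libraries (SD, n = 3), a 1.49-fold lower level against 5.34-fold for CITED1. The calls rested on the number of libraries, as did most calls of the whole table. Without control replicates 1, 2 and 3, limma called 1, 2 and 1 of the neighbours of CITED1. Without lentivirus-treated replicates 1, 2 and 3 it called 0, 1 and 3.

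On the other side of CITED1, the nearest row was 27239 bases away. It has a protein accession and measured 21.7, 26.4 and 25.4 FPKM in the controls and 18.6, 18.8 and 17.6 FPKM in the treated libraries. The groups did not overlap, but the difference of -0.40 log2 missed the threshold (limma adjusted p = 0.0572). Over all 28434 tested rows, only 76 had a lower difference than CITED1, so a small set of rows would seldom hold one. Of the 27 tested neighbours, 0 had a difference as low as that of CITED1. The lowest was -1.13 log2 with a standard error of 0.974, in a JK row that read 9.49 FPKM in 1 control library and under 0.1 FPKM in the other 5 libraries.

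CITED2 stood alone on 1 side. Its nearest row toward lower coordinates was 2.82 Mb away, and all 28 other rows within 1 Mb overlapped it or lay toward higher coordinates. Of 20 tested, 2 rose and 0 fell by limma, and the median difference was 0.20 log2. Leaving out the 2 JK rows within 1000 bases, 1 of 18 was called and the median was 0.15 log2. The called row, with a protein accession and 391702 bases away, measured 30.3, 30.3 and 30.4 FPKM in the controls and 35.7, 35.0 and 35.1 FPKM in the treated libraries. It rose by 0.21 log2 (limma adjusted p = 0.0369). That call too was lost in each fit without 1 library, as were most calls of the whole table. Chromosome 13 as a whole leaned the same way, with 359 tested rows higher and 203 lower and a median of 0.07 log2. By limma, 23 of its 562 tested rows rose and 9 fell.

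**Figure D4:**
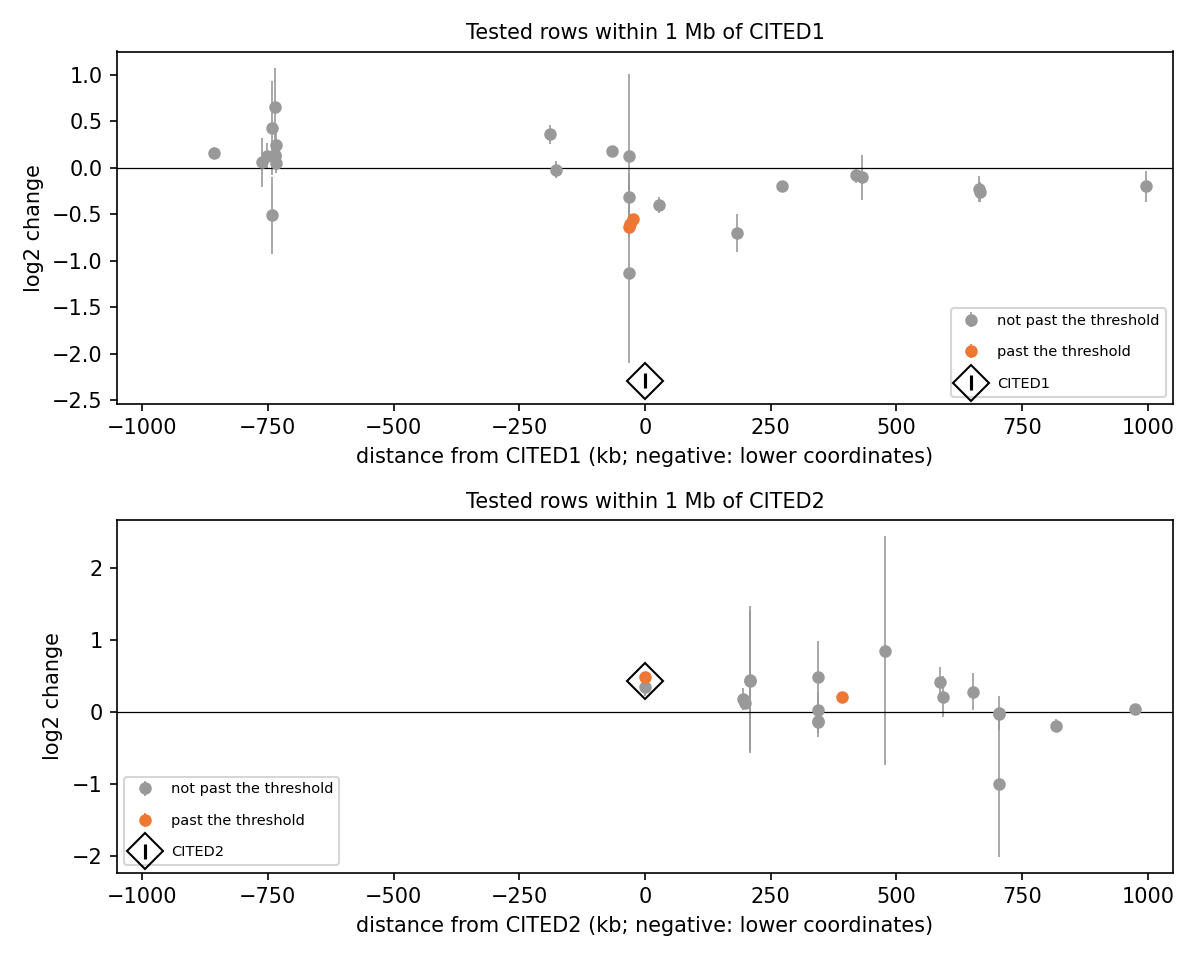
Difference in log2(FPKM + 1), lentivirus-treated minus control, of tested rows within 1 Mb of CITED1 (top) and CITED2 (bottom) by distance in kb. Bars are limma standard errors, open diamonds the 2 genes, and orange points rows past an adjusted p of 0.05; the orange point 0.286 kb from CITED2 lies inside its diamond. CITED1 at -2.29 lies below all its neighbours. The CITED2 value of 0.43 is within the range of the rows around it, but that range rests on uncertain rows. Apart from the point at 0.286 kb, the rows at or above 0.43 have standard errors larger than their differences. These JK rows lie at 0.43, 0.45, 0.48 and 0.85 log2, with standard errors of 0.972, 1.02, 0.501 and 1.59.

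Rows with the most similar pattern were sought among 4793 rows with a protein accession, a mean of at least 5 FPKM and no overlap with another row. The measure was Pearson's r of log2(FPKM + 1) over the 6 libraries, which fall into 2 groups, so that r mostly reads the difference between the groups and takes no account of its size. The row most like CITED1 was ENSP00000366275 (chromosome 14, 1095615 to 1135569; r = 0.9983), which measured 16.7, 17.0 and 17.4 FPKM in the controls and 13.3, 13.1 and 13.2 FPKM in the treated libraries. ENSP00000216968 (chromosome 2, 39476310 to 39480949; r = 0.9980) followed, with 34.9, 33.0 and 35.4 FPKM in the controls and 15.4, 16.1 and 16.8 FPKM in the treated libraries. Neither was as much lower as CITED1: the control means were 1.29 and 2.14 times the treated means. In all, 56 of the 4793 rows had r over 0.99 with CITED1.

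For CITED2, 2 rows had r over 0.99. This count cannot be set against the 56 of CITED1 to say which gene has more rows of similar pattern. With r mostly reading the group difference, both counts depend on how far each member's groups stood apart. That distance was 23.6 times the within-group SD for CITED1 and 6.01 times for CITED2, and the members were chosen on this contrast. ENSP00000356015 (chromosome 7, 18128920 to 18130108; r = 0.9929) measured 51.6, 49.2 and 56.2 FPKM in the controls and 66.2, 63.0 and 64.9 FPKM in the treated libraries. Like CITED2, it was lowest in replicate 2 of each group. ENSP00000336842 (chromosome 22, 15252099 to 15264706; r = 0.9903) was 1.08 times higher in treated libraries, with means of 19.3 ± 0.313 and 20.9 ± 0.151 FPKM (SD, n = 3). The files pair none of these 4 accessions with a symbol.

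**Figure D5:**
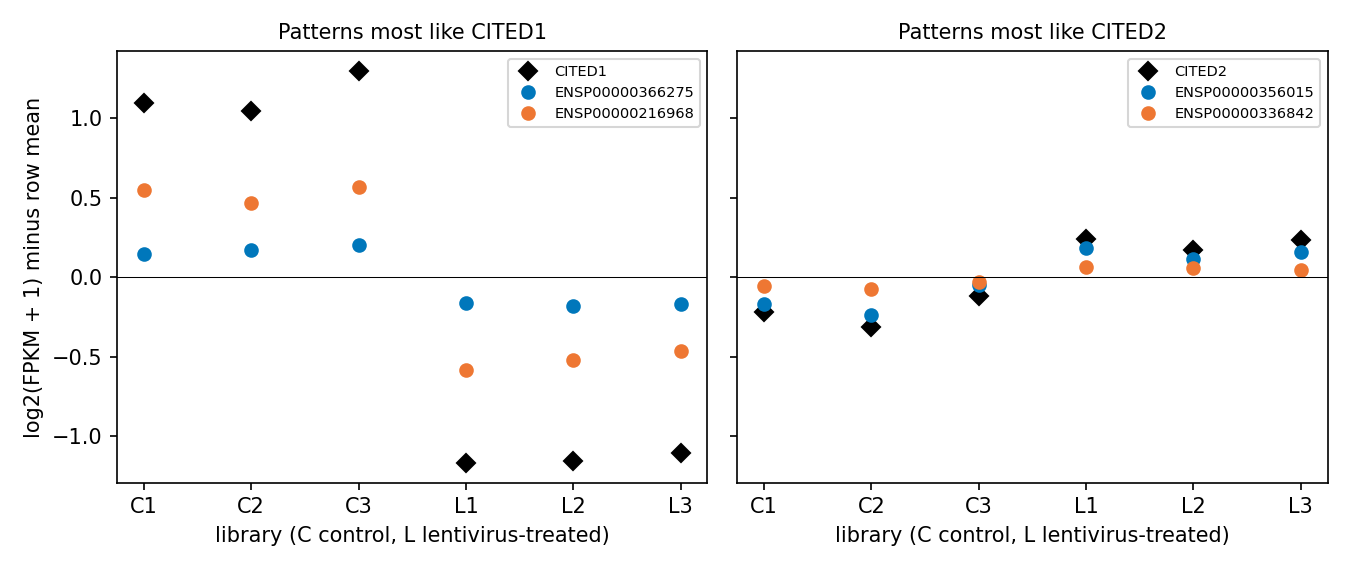
Deviation of log2(FPKM + 1) from the row mean in each library, for CITED1 (left, black diamonds) and CITED2 (right, black diamonds) and the 2 rows with the highest Pearson's r to each (coloured points). Rows follow the same order of groups, but CITED1 spans a wider range than the rows most like it.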

How the data were processed

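The authors deposited 1 table of FPKM values with a column for each of the 6 libraries. Per the submitters' processing notes, the tools were Cufflinks 2.1.1 with Cuffdiff, TopHat2 2.0.10 with Bowtie2 2.1.0.0, and CASAVA. The order of the tools, the genome build and any scaling between libraries were not given in the sources used here. Libraries were of poly-A RNA, per the labels' protocols. Estimation of FPKM over overlapping rows divides fragments among them, which can move single rows. FPKM keeps no read counts: of 14128 rows free of overlap, only 2 had every value between 0 and 0.3 FPKM, too few to read the worth of 1 fragment.

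Rows with a mean of at least 1 FPKM (28434 of 51520, both members included) were fitted on log2(FPKM + 1) in limma 3.58.1 (R 4.3.3; lmFit, eBayes with trend), with a term for the group. The p-values, two-sided, received Benjamini-Hochberg adjustment over all fitted rows, and a row was called when its adjusted p was under 0.05. The fit was tested on simulated data. With 3 libraries a group, the smallest p an exact permutation test allows is 0.10. Neighbours were all rows within 1 Mb, and the named rows of similar pattern were the 2 with the highest Pearson's r to each member, at a mean of at least 5 FPKM and with no overlap. The members, lists and rules were chosen with earlier results of these data known. Planned gene lists by symbol were not run because no row has a symbol. Alternatives covered pseudocounts, filters, scaling, the replicate block and leaving out each library.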

Additional observations from a re-analysis of the deposited data

How the results depend on the processing

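The log2 difference of CITED1 was -2.40 at a pseudocount of 0.1, -1.91 at a pseudocount of 5 and -2.14 on the TPM scale, where values are lower and the pseudocount weighs more. Its other alternatives, and all of those run for CITED2, moved the value by less than the within-group SD, and no direction reversed. Without 1 library CITED1 ran from -2.34 to -2.21 and CITED2 from 0.39 to 0.48. The 1842 called rows became 1197 with no filter, 2058 at a filter of 5 FPKM and 48 to 108 without 1 library. In a limma fit with a replicate block 0 rows were called, with 6084 at an unadjusted p under 0.05 against 6890 without it; CITED1 and CITED2 stayed at -2.29 and 0.43. The deviations of same-numbered libraries correlated at 0.131, -0.0284 and 0.00276 for replicates 1, 2 and 3. Between libraries of different numbers the correlations ran from -0.135 to 0.128. Replicate 1 lay above its own values with other numbers, and replicates 2 and 3 lay within theirs. So few values cannot settle whether the numbers pair the libraries. Against 3 called neighbours of CITED1, there were 4 at a filter of 5 FPKM, 0 under the replicate block, 0 with no filter and 0 to 3 without 1 library. Of the 2 called neighbours of CITED2, 0 were left under the replicate block and 0 in each fit without 1 library. Alternatives for the neighbours were added after seeing the data. The control share of CITED1 in the pair, 55.6%, became 41.1% when the row that overlaps CITED2 was summed with it. The cause of these differences was not tested, and unknown depth limits every value.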
